A study of Mus musculus with 5 samples.

Results

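The comparison described here sets 1 array of sulfuretin-treated adipocytes against 1 array of adipocytes that received the solvent DMSO. It uses 2 of the 5 arrays of the series. The members are the 12439 genes, of 18193 that a probe set names singly, whose brightest probe set reached a floor on at least 1 of the 5 arrays. The floor was the median of all probe set means, an intensity of 8.39. Both cultures were C3H10T1/2, a mouse mesenchymal cell line, fully differentiated into adipocytes by what the labels call a standard protocol. They were exposed for 6 h to sulfuretin or to DMSO, after a change of medium the day before, and no genetic change is given. The other arrays are butein, which shares the DMSO control, and resveratrol with a DMSO control of its own, called DMSO1. The labelled target for each array came from 500 ng of RNA. The labels give no dose for any compound.

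Sulfuretin is an aurone, a plant polyphenol with a catechol ring. Electrophilic and oxidisable polyphenols are known to act on KEAP1, the adaptor that marks the transcription factor NRF2 for degradation. When KEAP1 is modified, NRF2 accumulates, pairs with small MAF proteins and binds antioxidant response elements at genes for glutathione synthesis, thioredoxin recycling, heme breakdown, quinone reduction and conjugate export. Adipocytes meet this system as cells that make and store triglyceride, for which they need glucose and NADPH.

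With 1 array a side there is no spread between replicates and no test is possible within this pair, so the differences are a description of these arrays. In such bulk samples fewer cells of a type and less RNA per cell cannot be told apart. The sorted values of the DMSO and sulfuretin arrays differed by at most 0.093 on the log2 scale, whereas those of DMSO and DMSO1 differed by up to 0.96, so levels of the DMSO1 and resveratrol arrays are on a scale of their own. All 10 of 12 mature adipocyte markers that could be read were above the floor on both arrays, and their summed intensity was 24644 with DMSO and 24534 with sulfuretin. The summed intensity of 7 preadipocyte and fibroblast markers was 6060 and 6091. Of 8 macrophage and blood markers 6 were under the floor on both arrays, among them Adgre1, Ptprc and Itgam, and the sums were 70.5 and 70.4. Skeletal muscle markers summed to 138 and 118, with Myod1, Myog and Myf5 under the floor, osteoblast and chondrocyte markers to 174 and 146, with Alpl, Ibsp and Acan under it, and endothelial markers to 21.6 and 20.9, with Pecam1, Cdh5 and Tek under it.

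Most transcripts were at nearly the same level on both arrays. The differences, sulfuretin minus DMSO, had an SD of 0.19 over the counted genes on the log2 scale, and 88.1% of the genes lay within 1.2-fold. The 1st and 99th percentiles were -0.44 and 0.64, and the median was 0. Of all counted genes 34.8% were higher with sulfuretin by any amount, 32.6% were lower and 32.5% had exactly equal deposited values. A 2-fold criterion left 24 genes higher with sulfuretin, 0.193% of those counted, and 6 lower, 0.0482%. At 1.5-fold there were 169 higher genes, 1.36%, and 47 lower, 0.378%. The upper tail was the longer one: 9 genes, 0.0724%, were at least 3-fold higher and 1, 0.00804%, was at least 3-fold lower. The 24 higher genes started from DMSO intensities between 10.3 and 837, with a median of 55.4 against 42.4 for all counted genes, and 8 of them read under 20 with DMSO.

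**Figure D1:**
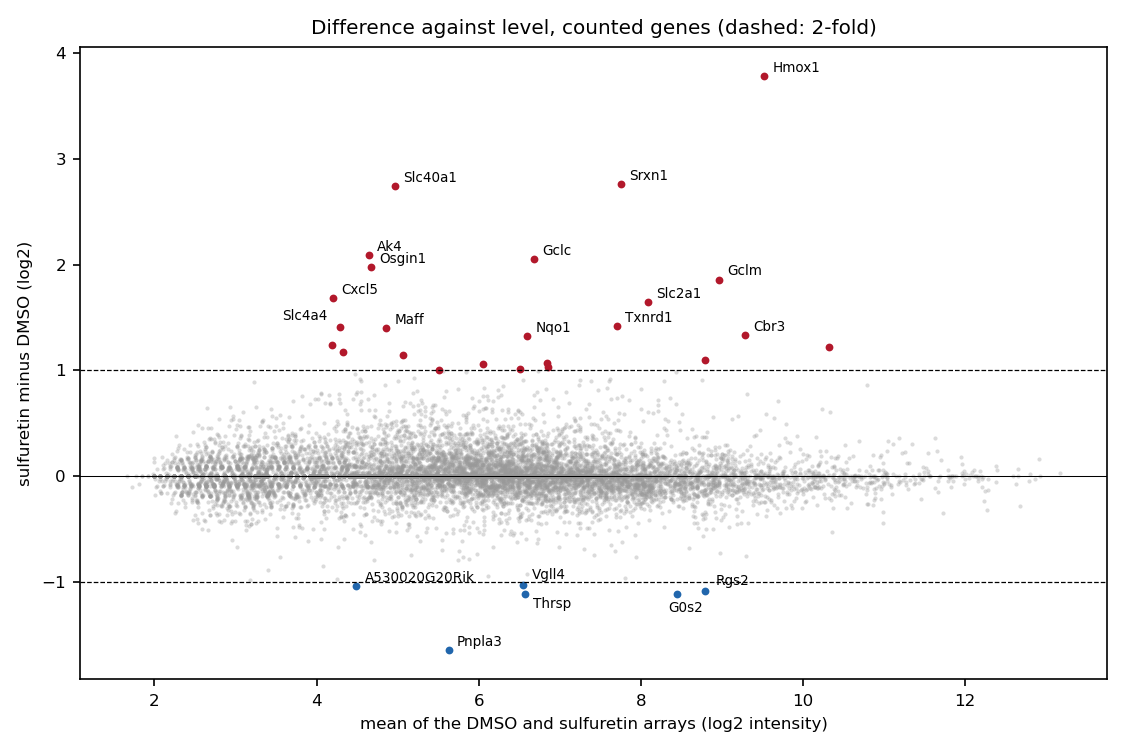
Difference between the sulfuretin and DMSO arrays (y axis, log2) against their mean level (x axis, log2 intensity) for 12439 genes, 1 point per gene; red points are at least 2-fold higher, blue points at least 2-fold lower, and dashed lines mark 2-fold. The 24 red points are spread over the range of levels, and Hmox1 lies highest.

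The gene with the largest difference was Hmox1 (NCBI gene 15368), which encodes heme oxygenase 1, the enzyme that opens heme into biliverdin, carbon monoxide and iron. Its intensity was 197 with DMSO and 2721 with sulfuretin, 13.8-fold higher, on the only probe set of the gene. Slc40a1 (NCBI gene 53945), which encodes ferroportin, the exporter of cellular iron, read 12.1 and 81. A second Slc40a1 probe set read 5.73 and 8.37, so it had the same direction at a smaller size near the floor. Other genes of heme and iron traffic were higher by less: the heme transporter gene Slc48a1 read 143 and 267 (1.87-fold), and the heme exporter gene Flvcr1 read 36.6 and 64.2 (1.75-fold). Blvrb, a biliverdin reductase gene, had a log2 difference of 0.38 and Fth1, the ferritin heavy chain gene, one of 0.16, while Blvra was at -0.09 and Aco1, the iron regulatory protein 1 gene, at -0.22. Of 19 counted genes of heme breakdown and iron handling 13 were higher, 5 lower and 1 equal, 2 passed 2-fold and 4 passed 1.5-fold upward, and the median log2 difference was 0.09. The 4 past 1.5-fold were the enzyme and 3 transporters of heme and iron.

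Glutathione synthesis followed. Gclc (NCBI gene 14629), the catalytic subunit of glutamate-cysteine ligase, read 50.3 with DMSO and 209 with sulfuretin, 4.15-fold higher, and a second probe set read 37.3 and 154. Gclm (NCBI gene 14630), the modifier subunit, read 262 and 951, and its second probe set 37.6 and 198, a log2 difference of 2.40 against 1.86 on the brightest. Both subunits were therefore higher on every probe set. Slc3a2, the heavy chain of the cystine and amino acid transporters, read 302 and 646 (2.14-fold), and Gsr, glutathione reductase, read 103 and 178 (1.74-fold). Slc7a11, the light chain that imports cystine, was under the floor on both arrays, with a log2 difference of 0.33. Gss, which completes glutathione, was at a log2 difference of 0.22, and the glutathione peroxidase genes Gpx1 and Gpx4 at -0.03 and 0.05. In all, 3 of 15 counted genes of glutathione synthesis and recycling passed 2-fold, 9 were higher, 6 lower, and the median was 0.14.

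Glutathione S-transferases, which join glutathione to electrophiles, showed smaller values. None of 18 counted members reached 1.5-fold, 11 were higher, 3 lower and 4 equal, and the median was 0.04. Gstm1 (391 and 576), Gsta4 (850 and 1107) and Gstp1 (2042 and 2625) had log2 differences of 0.56, 0.38 and 0.36. Sequence similarity within this family means that probe sets of sister genes may share signal.

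Among the thioredoxin and peroxiredoxin genes that were read, differences past 1.5-fold were limited to a pair of enzymes. Prdx1, Prdx5 and Prdx6 were not analysed. Srxn1 (NCBI gene 76650), sulfiredoxin, which repairs overoxidised peroxiredoxins, read 83.2 with DMSO and 563 with sulfuretin, 6.77-fold higher. Its 3 other probe sets had log2 differences of 2.58, 2.07 and 0.68. Txnrd1, cytosolic thioredoxin reductase, read 127 and 341, 2.68-fold higher, but its 2 dimmer probe sets, at DMSO intensities of 10.9 and 4.25, had log2 differences of -0.05 and 0.32. The other 15 of 17 counted genes lay between -0.26 (Sesn1) and 0.24 (Cat), including the superoxide dismutase genes Sod1 at 0.09 and Sod2 at 0.03, so the list median was 0.03.

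Quinone and carbonyl reduction had the highest median of the antioxidant lists, 0.24 over 16 counted genes, of which 11 were higher, 3 lower, 5 past 1.5-fold and 2 past 2-fold. Cbr3, a carbonyl reductase, read 392 and 989 (2.53-fold), and Nqo1, NAD(P)H quinone dehydrogenase 1, read 61.1 and 153 (2.51-fold). Adh7, an alcohol dehydrogenase, read 40.7 and 80.4, just under 2-fold at 1.98-fold. The aldehyde oxidase gene Aox1 was 1.86-fold and Ptgr1, prostaglandin reductase 1, had a log2 difference of 0.67. Of the pumps that export conjugates, Abcc4 read 64 and 129 (2.02-fold) and Abcc1 read 245 and 485 (1.98-fold), on either side of the criterion, and the other 4 counted pump genes lay between 0 and 0.19. For the supply of NADPH, Pgd, 6-phosphogluconate dehydrogenase, read 1312 and 2388 (1.82-fold). No other of the 12 counted pentose phosphate and NADPH genes reached 1.5-fold, but G6pdx was not analysed. Of the 12, 4 were higher and 7 lower, with Tkt at 0.12, Me1 at 0.09 and Taldo1 at 0.01, and the median was -0.04.

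The regulators themselves differed among each other. Nfe2l2, the gene of NRF2, read 216 and 247 (log2 difference 0.19) and Keap1 read 95.1 and 106 (0.15), both between the 75th percentile of all counted genes, 0.071, and the 95th, 0.33. Bach1, the repressor that competes with NRF2 for its sites, read 79.5 and 167 (2.10-fold), with a second probe set at a log2 difference of 0.93. The small MAF genes differed in size: Maff read 17.8 and 47 (2.63-fold), Mafg 111 and 208 (1.88-fold) and Mafk 33.9 and 40.6 (0.26 on the log2 scale). Sqstm1, the autophagy receptor p62, which also binds KEAP1, read 837 and 1948 (2.33-fold), with a second probe set at 0.89. Osgin1, an NRF2 target named for its growth inhibition, read 12.8 and 50.5 (3.94-fold). Altogether 4 of 13 counted regulator genes passed 2-fold and 10 were higher, with a median of 0.20.

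The promoter sequences of some of these genes are shown because they hold the letters of the antioxidant response element core or of the AP-1 site close before a transcription start. They are RefSeq sequences of assembly GRCm38.p6, on the strand of the gene, with the searched letters in capitals. Gclm is at chr3:122245388-122245466 (plus strand), Txnrd1 at chr10:82859079-82859157 (plus strand), Maff at chr15:79346474-79346552 (plus strand), Osgin1 at chr8:119437015-119437091 (plus strand) and Srxn1 at chr2:152105387-152105463 (plus strand). The capitals mark TGACNNNGC on the opposite strand in Gclm and Txnrd1 and on the gene's strand in Maff, and TGACTCA on the gene's strand in Osgin1 and on the opposite strand in Srxn1. In the stretches shown the first marked base lies 134 bases before the start in Gclm, 92 in Txnrd1, 112 in Maff, 97 in Osgin1 and 102 in Srxn1.
Gclm: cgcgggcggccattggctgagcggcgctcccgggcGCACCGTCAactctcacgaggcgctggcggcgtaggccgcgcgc
Txnrd1: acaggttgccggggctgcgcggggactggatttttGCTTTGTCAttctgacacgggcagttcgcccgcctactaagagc
Maff: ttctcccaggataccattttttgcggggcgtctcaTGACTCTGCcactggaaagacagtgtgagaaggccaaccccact
Osgin1: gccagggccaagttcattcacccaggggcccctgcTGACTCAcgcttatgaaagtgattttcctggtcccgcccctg
Srxn1: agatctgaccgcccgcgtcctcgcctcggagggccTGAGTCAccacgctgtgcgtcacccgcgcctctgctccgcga

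Windows from 250 bases before to 50 bases after each start were searched on both strands, and a gene was counted if any of its windows held the motif. Windows were found for 18 of the 24 higher genes. TGACNNNGC was in 5 of the 18 (Abcc4, Gclm, Maff, Srxn1 and Txnrd1), 27.8%, against 16.6% of 9978 counted genes with a window and 12.4% of all 32851 windows. TGACTCA, which overlaps that core where GC follows it, was in 3 of the 18, against 4.58% of counted genes and 5.20% of all windows. Among the 133 genes with a window that were at least 1.5-fold higher, the shares were 18.0% and 8.27%. Among the 34 with a window that were at least 1.5-fold lower, they were alike at 17.6% and 8.82%. A match describes these letters only.

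Some genes of glucose entry and of the hypoxia response were also higher. Slc2a1 (NCBI gene 20525), the glucose transporter GLUT1, read 153 with DMSO and 480 with sulfuretin, 3.14-fold higher, and its 2 other probe sets had log2 differences of 1.82 and 1.63. Hk2, the hexokinase that traps glucose as its phosphate, read 80.8 and 166 (2.05-fold), and Pdk1, the kinase that restrains pyruvate dehydrogenase, read 193 and 341 (1.77-fold). The insulin-responsive transporter gene Slc2a4 read 93 and 73.1, a log2 difference of -0.35. Of 17 counted genes of glucose uptake and glycolysis 12 were higher and 3 lower, with a median of 0.31 that turned to -0.08 against DMSO1 (here and further on, after joint quantile normalization of the 5 arrays). The enzymes of the lower pathway shared small positive values, Tpi1 0.37, Ldha 0.33, Pgam1 0.32 and Pgk1 0.31.

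In the hypoxia list 14 of 21 counted genes were higher and 6 lower, with a median of 0.43. Ak4, a mitochondrial adenylate kinase, led it at 12.1 and 51.6 (4.26-fold). That value rests on the brightest of 5 probe sets, since the others had log2 differences of 1.36, 0.15, 0 and 0. Bnip3, a mitophagy receptor, read 964 and 1499 (1.55-fold), Ero1a, an oxidase of the endoplasmic reticulum, read 296 and 445 (0.59 on the log2 scale) and Ankrd37 had a log2 difference of 0.65. The prolyl hydroxylase genes P4ha1 (0.57), P4ha2 (0.56) and Egln1 (0.43) and the angiogenic factor gene Vegfa (0.43) had smaller differences in the same direction. Hif1a was exactly equal at 488, Epas1 was at -0.47 and Ndrg1, Ddit4 and Adm at -0.11, -0.09 and -0.06, so not every member was higher.

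These stretches hold the hypoxia response core ACGTG upstream of genes of this group. Slc2a1 is at chr4:119108674-119108744 (plus strand), with the core on the gene's strand from 36 bases before the start, and Hk2 at chr6:82774467-82774541 (minus strand), with the core on the opposite strand from 52 bases before it.
Slc2a1: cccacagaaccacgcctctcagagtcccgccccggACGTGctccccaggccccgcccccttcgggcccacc
Hk2: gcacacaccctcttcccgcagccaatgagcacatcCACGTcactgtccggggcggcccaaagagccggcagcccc
ACGTG, which the E-box CACGTG contains, was in 9 of the 18 higher genes with a window and in 41.4% of the 133 at least 1.5-fold higher, against 28.7% of counted genes and 19.6% of all windows. CACGTG itself was in 5 of the 18, in 18.0% of the 133 and in 11.5% of counted genes.

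Of the 6 genes past 2-fold downward 3 are lipid genes, Pnpla3, G0s2 and Thrsp. Pnpla3 (NCBI gene 116939), a lipid droplet acyl hydrolase induced by feeding, read 87.5 with DMSO and 28 with sulfuretin, 3.13-fold lower. G0s2 (NCBI gene 14373), the inhibitor of adipose triglyceride lipase, read 511 and 237, 2.16-fold lower. Each is read by a single probe set. The lipase itself, Pnpla2, was at a log2 difference of -0.13 and its activator gene Abhd5 at -0.10, hormone-sensitive lipase Lipe at 0.08 and Mgll at 0.01, and the droplet coat genes Plin2 and Plin4 at 0.24 and 0.23. Of 16 counted droplet and lipolysis genes 7 were higher and 9 lower, with a median of -0.03, so the low values of Pnpla3 and G0s2 were not shared by their neighbours in the pathway.

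In fatty acid synthesis some members were lower and most stood near their control level. Thrsp (NCBI gene 21835), a nuclear protein gene of lipogenic tissues, read 139 and 64.6 (2.16-fold lower), and its other probe sets had log2 differences of -0.76 and 0. Mid1ip1, a paralogue of Thrsp that activates acetyl-CoA carboxylase, read 262 and 160 (1.63-fold lower). Fasn, fatty acid synthase, read 1575 and 1095 (-0.52), Srebf1, the lipogenic sterol regulatory factor, 265 and 190 (-0.48), Acly 1463 and 1192 (-0.30) and Acaca 247 and 208 (-0.24). The desaturase gene Scd1 was exactly equal at 7738 and Scd2 was at 0.18, and Mlxipl, the glucose-responsive factor, was under the floor on every array. Over 24 counted genes 14 were lower, 9 higher and 1 equal, with a median of -0.06. Against DMSO1 Srebf1 turned to 1.02-fold higher, while Thrsp was 2.00-fold and Mid1ip1 2.08-fold lower, and the list median was -0.19.

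Cholesterol genes were lower more evenly but by less. Of 21 counted genes 17 were lower, 2 higher and 2 equal, none reached 1.5-fold, and the median was -0.20. The lowest were Mvd (80 and 54.6, -0.55), Mvk (74.8 and 53.4, -0.49), Fdft1 (642 and 460, -0.48) and Hmgcs1 (2357 and 1735, -0.44), all enzymes between acetyl-CoA and squalene. Srebf2, the factor that drives these enzymes, was equal on both arrays, and Scap was at 0.03.

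Genes that define the adipocyte stood close to the level of the DMSO array. Adipoq read 7202 and 6976 (-0.05), Fabp4 9134 and 9340 (0.03), Lpl 3996 and 4029, Retn 1856 and 1857, and Cebpa 158 and 160. Pparg, the master regulator, was the lowest of the mature adipocyte list at 462 and 355 (-0.38). None of its 19 counted genes reached 1.5-fold, 10 were lower, 7 higher and 2 equal, with a median of -0.05. Against DMSO1 that median was -0.29, where Cebpa was 1.76-fold lower and Fabp4 1.07-fold higher. Among adipogenic transcription factors Cebpb, an early factor that also answers stress, read 648 and 1062 (1.64-fold higher), Klf4 was at 0.43 and the other 17 counted genes lay between -0.48 and 0.24. Of 25 counted repressors of adipogenesis Trib3 (79 and 134) and Sirt1 (40.3 and 61.6) were 1.70-fold and 1.53-fold higher, and Twist1 was lowest at -0.50. In the thermogenic list Prdm4, a zinc finger factor gene, read 42.8 and 59.3 (0.47) and Ppargc1a, a coactivator gene, 11.8 and 14.3 (0.28), 13 of 23 genes were counted, none reached 1.5-fold, and Ucp1, which uncouples respiration, did not reach the floor. The droplet coat gene Plin1 was not analysed here.

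Insulin signalling genes leaned downward by small amounts, with 13 of 21 counted genes lower, 5 higher and a median of -0.03 (-0.28 against DMSO1). The lowest were Pik3r1 (469 and 345, -0.44), the regulatory subunit of phosphoinositide 3-kinase, Slc2a4, and Irs1 (1125 and 914, -0.30). In cAMP and G protein signalling Rgs2 (NCBI gene 19735), which shortens signals of Gq-coupled receptors, read 646 and 305, 2.12-fold lower, and its 3 other probe sets had log2 differences of -1.45, -1.11 and -0.64. Pde5a, the cGMP phosphodiesterase gene, was 1.52-fold lower at 57.5 and 37.9, and the natriuretic clearance receptor gene Npr3 was at -0.44. Ffar4, a receptor gene for long-chain fatty acids, was 1.58-fold higher than DMSO but 1.05-fold lower than DMSO1. The median of the 20 counted genes was -0.04.

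The other named gene past 2-fold downward was Vgll4, whose product competes with YAP for TEAD factors. It read 134 and 65.6, 2.04-fold lower, on its only probe set. In the TGF-beta and YAP list Fst, the activin antagonist follistatin, read 96.2 and 50 (1.93-fold lower) and Ccn2 read 248 and 158 (1.57-fold lower), while Skil, a repressor of SMAD proteins, was 1.66-fold higher. Against DMSO1 Ccn2 turned to 1.58-fold higher and Skil was 1.18-fold higher. Of 23 counted genes 13 were lower and 6 higher, with a median of -0.04 that turned to 0.29 against DMSO1. The remaining lower gene, known by the clone name A530020G20Rik, read 32.2 and 15.7.

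Inflammatory and immediate early genes were mostly near the level of the DMSO array, with some higher members. The neutrophil chemokine gene Cxcl5 read 10.3 and 33 (3.21-fold), Cxcl1 46.9 and 78.2 (1.67-fold) and Ccl2 119 and 175 (0.55), but Il1b was equal, Ptgs2 at -0.03 and Tnfrsf11b, osteoprotegerin, 1.61-fold lower. The 21 counted genes had a median of 0, and of 0.49 against DMSO1. Of 28 immediate early genes 8 passed 1.5-fold upward and none downward: Maff, Atf3 (58.4 and 106, 1.81-fold), Dusp6 (1.59-fold), Ier3 (1.58-fold), Myc, Fosl2, Fosl1 and Jun. Fos (46 and 31.1, -0.57), Egr1 (-0.09) and Nr4a1 (0.05) were not among them, and the median was 0.05. Against DMSO1 this median was 0.48. Ly96, a co-receptor of the lipopolysaccharide receptor that was in no list, read 11.9 and 28.1 (2.36-fold).

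Stress responses outside the antioxidant system had small shifts. Of 23 counted ER chaperone and unfolded protein response genes 19 were higher, 4 equal and none lower, with a median of 0.19, and Dnajb9, a co-chaperone of BiP, was highest at 608 and 913 (0.59 on the log2 scale). Heat shock genes had a median of 0.09, with Hspb8 (1.67-fold) and Dnajb4 (1.65-fold) past 1.5-fold upward and the small heat shock gene Cryab (320 and 189, 1.69-fold) past it downward. Against DMSO1 Cryab turned to 1.52-fold higher and Hspb8 to 1.05-fold lower. Of 29 counted ATF4 and amino acid response genes 14 were higher and 14 lower. There Slc3a2 and Trib3 were past 1.5-fold upward, but Asns, Psat1 and Phgdh, which make asparagine and serine, were at -0.08, -0.17 and -0.16. Metal response genes had a median of 0.27, with 10 of 11 higher, led by the zinc exporter gene Slc30a1 (57.9 and 97.6, 1.69-fold). The metallothionein genes Mt2 and Mt1 were at 0.38 and 0.30. In the aryl hydrocarbon receptor list Tiparp, a target gene, read 72.2 and 111 (1.54-fold), Cyp1b1 was at 0.03, and only 6 of 10 genes were counted, so its median of 0.30 rests on few values.

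Cell cycle genes were mostly lower by small amounts, 24 of 28 counted, with 2 higher, 2 equal, none past 1.5-fold and a median of -0.15. Mcm4 and Mcm5, of the replicative helicase, were at -0.44, Cdk1 and Top2a at -0.38 and Mki67 at -0.34. Matrix genes had a median of -0.01 over 32 counted genes, and of 0.13 against DMSO1. The proteoglycan genes Lum (77.3 and 45.1, 1.71-fold lower) and Dcn (-0.54) stood out from the collagens, with Col1a1, Col1a2 and Col3a1 between -0.02 and -0.01. The summed muscle and osteoblast markers given above were also lower with sulfuretin, but not across all markers. Of those above the floor Acta1 read 71.1 and 52.6, Sox9 92.3 and 74 and Col2a1 44.4 and 34.6. Des and Sp7 were equal and Ckm read 10.2 and 10.1. The part of these markers in the values of this paragraph was not tested.

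Several lists stayed within narrow limits between the DMSO and sulfuretin arrays. All 35 counted proteasome genes lay between -0.16 and 0.23, all 26 oxidative phosphorylation genes between -0.16 and 0.09, and all 17 ribosomal protein genes between -0.11 and 0.02. Medians were 0, -0.01 and 0, and against DMSO1 0.13, 0.004 and 0.09. Autophagy genes other than Sqstm1 lay between -0.15 and 0.54, with Gabarapl1 highest. Medians were 0.02 for glucocorticoid responsive genes, where Sgk1 was 1.57-fold higher, and 0.01 for fatty acid uptake and oxidation. Against DMSO1 these medians were 0.40 and -0.23. Adipokines, p53 targets, interferon-stimulated genes and circadian clock genes each had a median of 0. Their medians against DMSO1 were -0.09, -0.02, 0.04 and 0.30. Housekeeping genes had a median of 0.04 (-0.16 against DMSO1).

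**Figure D2:**
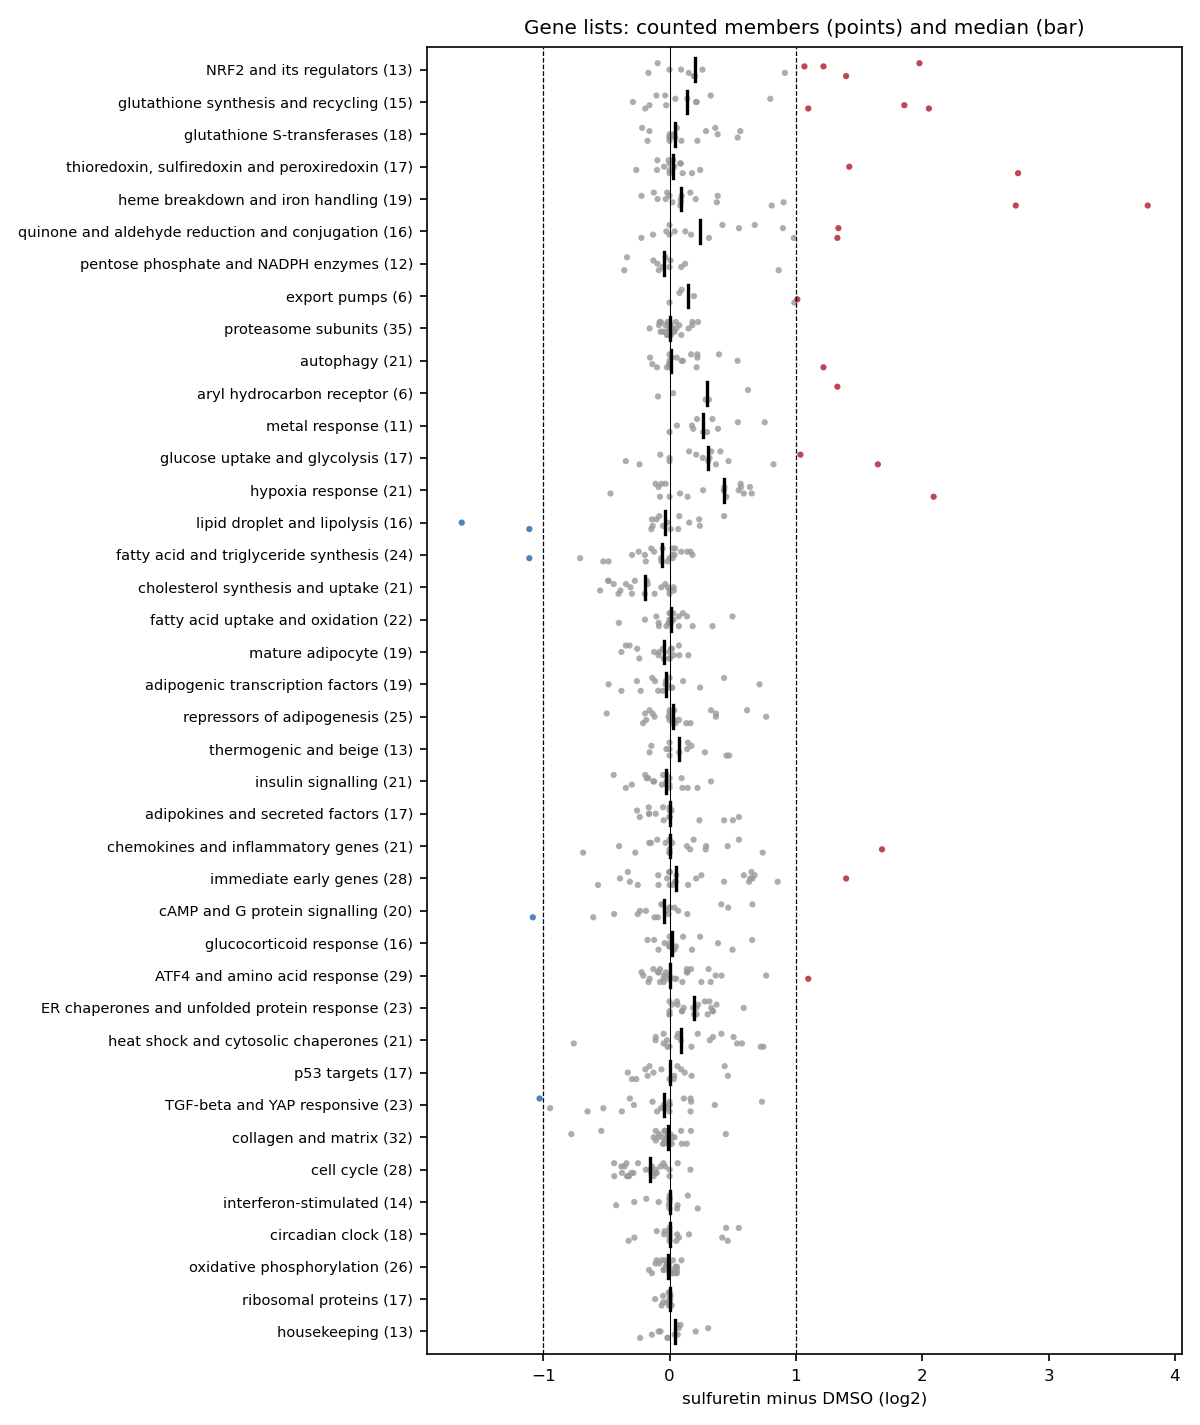
Differences between the sulfuretin and DMSO arrays (x axis, log2) for the counted members of 40 gene lists (rows, number counted in brackets); points are genes, red or blue where at least 2-fold higher or lower, and black bars are list medians. Red points gather in the antioxidant, heme and glucose lists, and all but a few of the other points lie within the dashed 2-fold lines.

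Some genes outside every list were also past 2-fold. Slc4a4, a sodium bicarbonate cotransporter, read 12 and 32 (2.66-fold), Sgms2, a sphingomyelin synthase, 13.3 and 30 (2.25-fold) and Smyd4, a SET and MYND domain protein gene, 22.4 and 49.7 (2.21-fold). Tshz1, a zinc finger protein gene, read 46.1 and 96.3 (2.09-fold), with a second probe set at a log2 difference of 1.16, and Dusp10, a phosphatase of p38 and JNK kinases, read 32.1 and 64.6 (2.01-fold). The criterion cut through a continuous range. Just inside it were Dusp10, Abcc4 and Hk2 upward and Vgll4, A530020G20Rik and Rgs2 downward. Just outside it were Mllt11 (1.99-fold), Lcor (1.99-fold) and Abcc1 (1.98-fold) upward, and Lfng (1.98-fold), Mef2c (1.96-fold) and Lrig1 (1.94-fold) downward.

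Probe sets of the same gene gave a check that does not depend on the choice of the brightest. Of the 24 higher genes 10 have 1 probe set and 14 have others, 24 other probe sets in all. Of these 24, 19 had the same sign, 3 were equal and 2 opposite (Txnrd1 and Sgms2, at -0.05 and -0.04), and 8 passed 2-fold the same way. Those 8 belong to 6 genes, Srxn1, Gclc, Gclm, Slc2a1, Ak4 and Tshz1. For Slc40a1, Txnrd1, Slc4a4, Smyd4, Sgms2 and Dusp10 no other probe set reached 1.5-fold. Of the 6 lower genes 3 have others, 7 probe sets in all, of which 6 had the same sign, 1 was equal and 2, both of Rgs2, passed 2-fold.

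**Figure D3:**
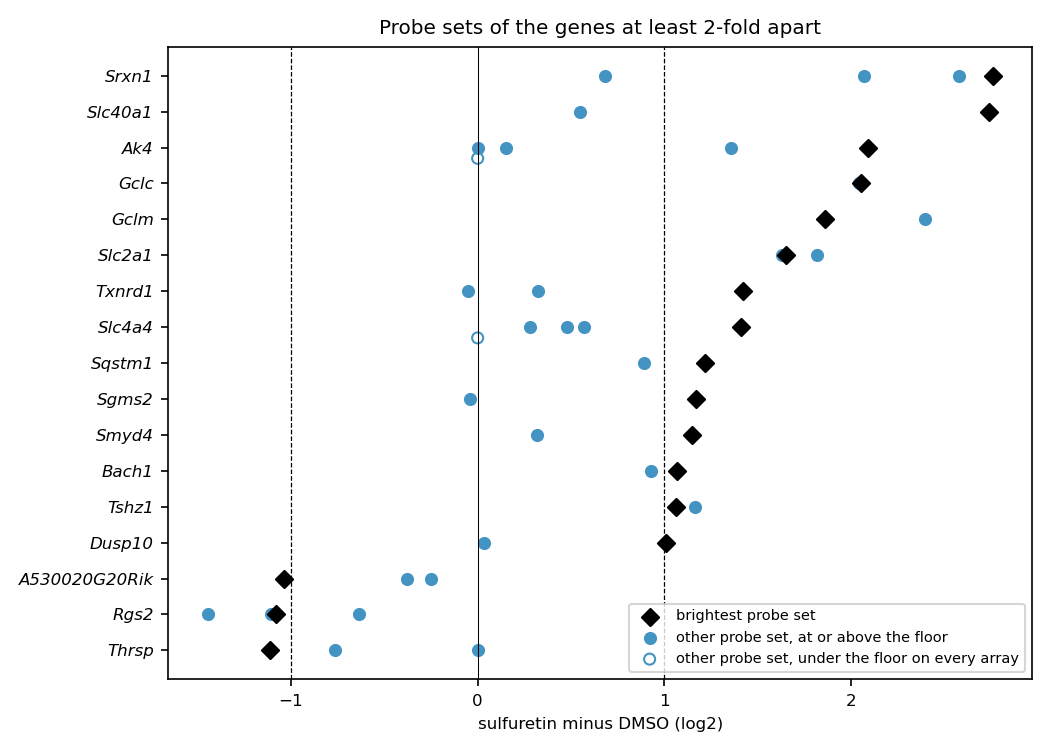
Differences between the sulfuretin and DMSO arrays (x axis, log2) for each probe set of the genes past 2-fold with more than 1 probe set; diamonds are the brightest probe sets, circles the others, open where under the floor on all 5 arrays. All probe sets of Gclc, Gclm and Slc2a1 lie past the dashed 2-fold line, whereas those of Slc40a1, Txnrd1, Slc4a4, Sgms2, Smyd4 and Dusp10 other than the brightest lie between -0.05 and 0.57.

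The second solvent array gave another reference for the same sulfuretin array, on which the genes had been called. With all 5 arrays brought to a common distribution by quantile normalization, the sulfuretin array was higher than DMSO1 for all 24 genes that were higher than DMSO, and lower for all 6 that were lower. The sizes changed. Past 2-fold against both controls, DMSO as deposited and DMSO1 on the common scale, were 14 higher genes, Hmox1, Slc40a1, Slc2a1, Cxcl5, Srxn1, Gclm, Ak4, Gclc, Maff, Ly96, Osgin1, Bach1, Cbr3 and Nqo1, and 4 lower genes, Rgs2, Vgll4, A530020G20Rik and Thrsp. With the common scale for both controls the 14 were the same, but Vgll4 and A530020G20Rik fell short against DMSO, both at a log2 difference of -0.98, which left 2 lower genes. Hmox1 was 8.50-fold, Slc40a1 9.13-fold and Slc2a1 4.58-fold higher than DMSO1. By contrast Sgms2 was 1.04-fold, Abcc4 1.09-fold, Slc4a4 1.36-fold, Sqstm1 1.39-fold and Txnrd1 1.52-fold higher, and Pnpla3 1.21-fold and G0s2 1.86-fold lower. With DMSO1 as the reference 451 genes passed 2-fold upward and 305 downward, so this yardstick is much wider than the pair itself. The median of the 12439 genes was 0.08 there, and list medians were 0.48 for NRF2 regulators, 0.36 for hypoxia, 0.16 for ER chaperones, -0.15 for cholesterol and -0.30 for cell cycle genes. In 8 of the 40 lists the median turned its sign, glucose uptake and glycolysis among them. Of the 169 genes at least 1.5-fold higher than DMSO 19 were lower than DMSO1, and of the 47 at least 1.5-fold lower 13 were higher. Among the genes named above these were Ccn2, Cryab, Hspb8 and Ffar4, and Atf3, Dnajb9 and Ero1a at log2 differences of -0.05, -0.03 and -0.30 from DMSO1.

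**Figure D4:**
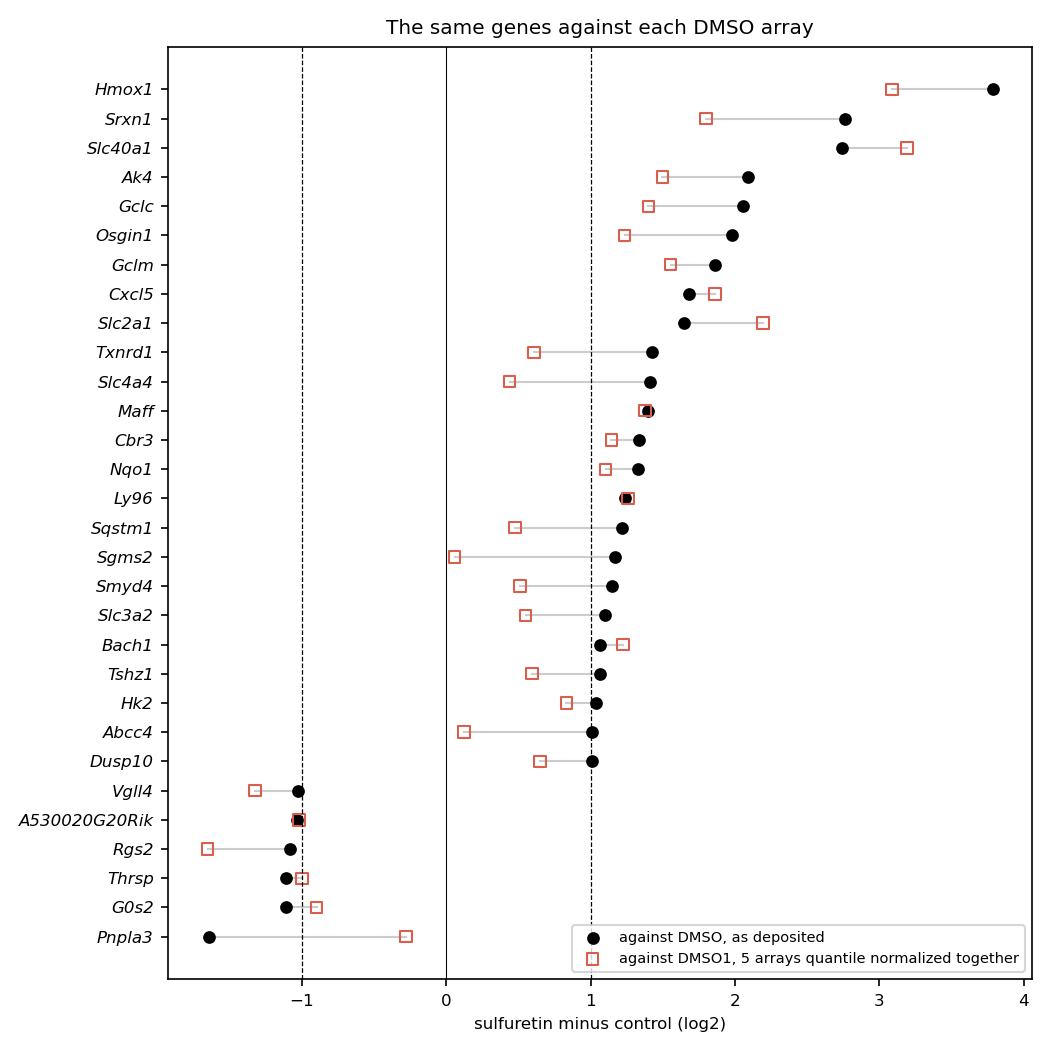
Log2 difference of the sulfuretin array (x axis) from DMSO as deposited (filled circles) and from DMSO1 after joint quantile normalization (open squares) for the 30 genes past 2-fold against DMSO (rows). Every square lies on the same side of 0 as its circle, and 18 squares lie past the dashed 2-fold lines.

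Butein and resveratrol are given beside sulfuretin as values only, since doses are not stated and a matched comparison cannot be made. Hmox1 was at a log2 difference of 4.39 with butein and 0.97 with resveratrol, against 3.78 with sulfuretin. Maff was at 4.88, 0.41 and 1.40 in that order, Slc40a1 at 3.23, 0.43 and 2.74, Cxcl5 at 1.86, -0.17 and 1.68, and Smyd4 at 0.54, -0.10 and 1.15. Butein and sulfuretin share the DMSO array and resveratrol was read against DMSO1.

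**Figure D5:**
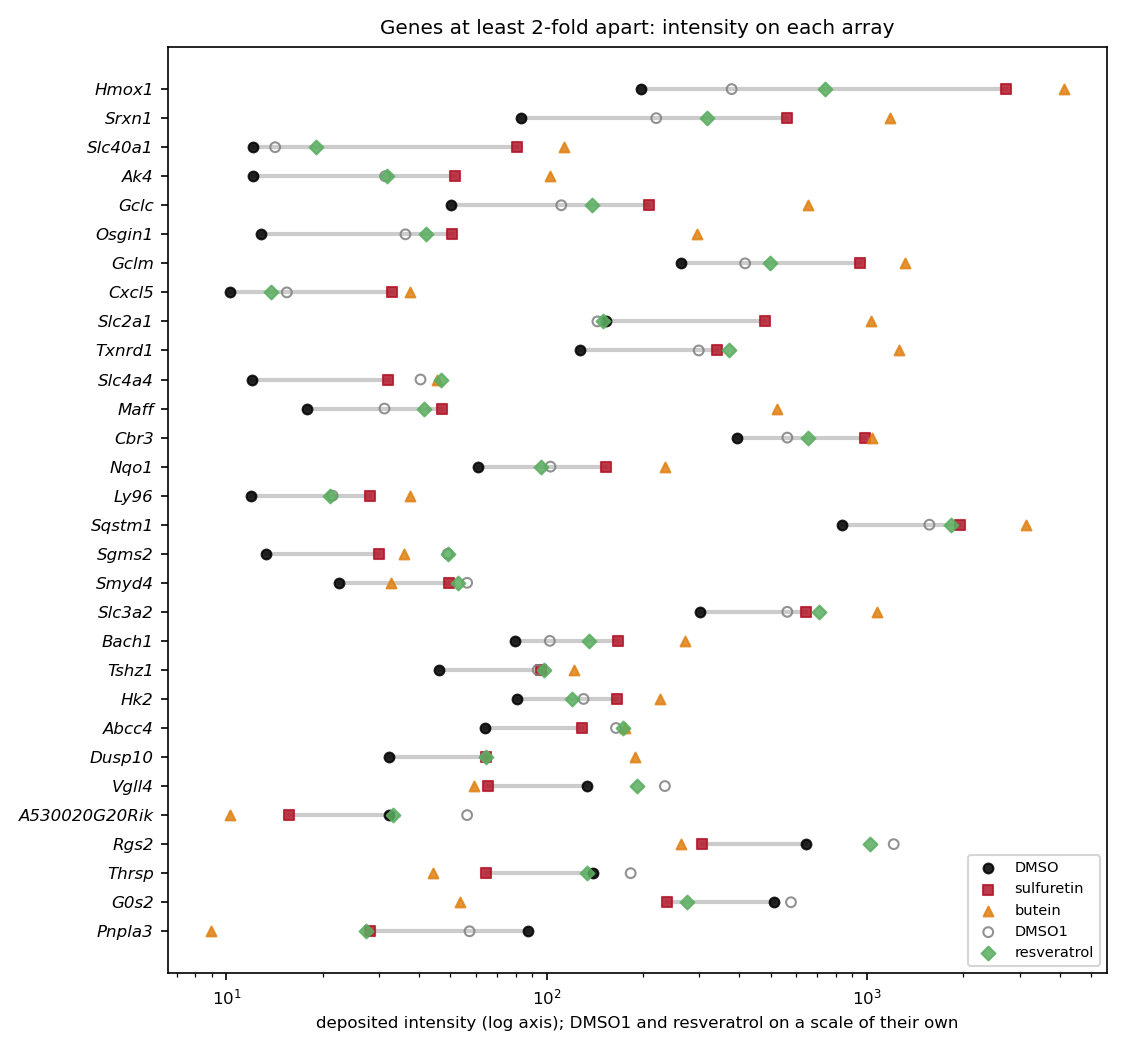
Deposited intensity (x axis, log scale) of the 30 genes past 2-fold (rows) on each of the 5 arrays; grey bars join DMSO and sulfuretin. For Hmox1 the values run from 197 with DMSO to 2721 with sulfuretin and 4134 with butein, and DMSO1 and resveratrol are on a scale of their own.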

How the data were processed

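Total RNA of 5 cultures was read on Affymetrix mouse arrays, 1 array per group. Per the submitters' processing notes the authors used RMA, whose version was not given in the sources used here. Judged by range, the deposited intensities are on a linear scale. Log2 of each deposited intensity was taken with no pseudocount.

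The platform annotation names 1 gene for 34945 of the 45037 probe sets, several for 932 and none for 9160; only the first were used. Symbols were updated by gene ID through RefSeq GRCm38.p6, which held 34741 of the IDs. A gene took its brightest probe set and was counted at the floor described above. Equal means within 1e-06. Named are genes past 2-fold without a clone name, up to 4 members past 1.5-fold per list, the genes nearest the criterion and a fixed set of adipocyte and NRF2 genes; other list members were named after their values were seen, to describe a list. The members and lists were chosen with earlier results of these data known. Alternatives were other fold criteria (1.5 and 3), floors (none, percentile 75, both arrays), the mean of probe sets, leaving out cross-hybridising probe sets, joint quantile normalization, loess (span 0.4), centring, DMSO1 as control and limma; calling against both controls was added after the data were seen. The procedure was tested on simulated data. Software was limma 3.58.1 in R 4.3.3, and Python 3.11.15 with pandas 2.3.3, numpy 2.4.6, statsmodels 0.14.6, scipy 1.17.1 and matplotlib 3.10.9.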

Additional observations from a re-analysis of the deposited data

Results flagged for a closer look

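Outside the comparison stood probe sets that name no gene or several, of which 3688 reached the floor. With sulfuretin 5 of these were at least 2-fold higher than with DMSO, 0.136%, and 4 were at least 2-fold lower, 0.108%. The highest read 11.4 with DMSO and 83.6 with sulfuretin, 7.31-fold higher, and was 7.97-fold higher than DMSO1 after joint normalization. Against DMSO1 3 of the 9 turned their direction, 1 of the higher and 2 of the lower probe sets. The lowest read 123 and 43.3, 2.83-fold lower. They are listed because they show a difference from the control in data that no gene comparison used; the platform annotation used here names no gene for these 2 probe sets.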

How the results depend on the processing

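No paired analysis was possible because each group has 1 array. The counts of 24 higher and 6 lower genes kept within 1.5 times of these values without a floor and with either other floor. They also did so with the mean of all probe sets, without cross-hybridising probe sets, and with joint quantile normalization or loess. Centring could not change them, because the median difference was already 0. The same genes were not always called: the mean of probe sets kept 17 of the 24 and 4 of the 6, joint normalization 20 and 4, loess 23 and 6, and the percentile 75 floor 22 and 6. The counts became 169 and 47 at 1.5-fold, 9 and 1 at 3-fold, 451 and 305 with DMSO1 as control after joint normalization, 38 and 21 with the mean of both DMSO arrays, and 14 higher when both controls were required. Limma was also run with DMSO and DMSO1 as replicates of 1 group (1 residual degree of freedom, the lone arrays assumed to vary like these). On the deposited values the log2 difference of Hmox1 was 3.32. The median intensity was 6.85 on DMSO and 11.1 on DMSO1, so the residual there includes the difference in scale. After joint normalization the log2 difference of Hmox1 was 3.35. Counts of genes passing are given for neither run, since the sulfuretin group holds 1 array. With DMSO1 as control the list medians of glucose uptake and glycolysis (-0.085), contractile genes (0.088) and sphingolipid synthesis (-0.072) turned their sign. The first is among the 8 of the 40 lists that did so, and the others are lists chosen after the values were seen. The cause was not tested. No single-gene call past 2-fold reversed under an alternative that was run. Every alternative kept the sulfuretin array on which the genes were called, so this is not replication. Values near the floor limit the sizes of dim genes such as Slc40a1, Ak4, Cxcl5 and Ly96.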

Other observations

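Some gene groups were noticed only in the values, so their lists were chosen after these had been seen and no test is given. Of 38 counted lysosome genes 29 were higher with sulfuretin, 4 lower and 5 equal, 7 were past 1.5-fold upward and none downward, and the median log2 difference was 0.08. The 7 were the sialidase gene Neu1 (28.6 and 50, 1.74-fold), the cystine exporter gene Ctns (16.9 and 28, 1.66-fold), the cationic amino acid exporter gene Slc66a1 (30.3 and 50, 1.65-fold), the cholesterol exporter gene Npc1 (15.4 and 24.8, 1.61-fold), Lyst (1.55-fold), the galactosidase gene Gla (1.53-fold) and the acid lipase gene Lipa (181 and 273, 1.51-fold). Against DMSO1 after joint normalization Ctns turned to 1.59-fold lower. The brightest lysosome genes, Npc2, Lamp1 and Psap, were at 0, 0.06 and 0.13. The factor genes Tfe3, Mitf and Tfeb were at 0.25, 0.17 and -0.02.

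Contractile genes and other genes bound by serum response factor were lower in 19 of 23 counted members, with 1 higher, 3 equal and a median of -0.32. Nexn (34.3 and 19.8), Myl9 (646 and 391), Ldb3, Lmod1 and Mylk (130 and 86.2) were past 1.5-fold downward, and Acta2, smooth muscle actin, read 5495 and 4419 (-0.31). Against DMSO1 this median was 0.088, and Myl9, Ldb3 and Lmod1 were at 0.19, 0.48 and 0.69, so the direction depends on the control. The summed skeletal muscle markers were 138 and 118, with Acta1 at 71.1 and 52.6 and Des equal. Their part in this was not tested. Of 16 counted MAP kinase phosphatase, Sprouty and Spred genes 5 were past 1.5-fold upward, Dusp10, Dusp16 (1.69-fold), Spred2 (1.62-fold), Dusp6 and Dusp4 (1.56-fold), and none downward. In sphingolipid synthesis Sgms2 and Sptlc2, a subunit of the first enzyme (232 and 381, 1.65-fold), were past 1.5-fold, and the median of 15 genes was 0.15. Against DMSO1 that median turned to -0.07, and Sgms2 was 1.04-fold higher. Both catalytic subunit genes of AMP-activated kinase were higher, Prkaa1 at 54 and 89 (1.65-fold) and Prkaa2 at 17.8 and 31 (1.74-fold), while the 4 other counted subunits lay between -0.04 and 0.09. In BMP signalling Id1 (487 and 305, a log2 difference of -0.68), Crim1 (1.70-fold) and Fst were past 1.5-fold downward and Id2 was at 0.50, with a median of 0 over 17 genes.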
